A study of Drosophila melanogaster with 8 samples.

Results

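The candidate genes described here are *puc*, *Oda*, *Tsp42Ef*, *CG10731*, *RhoGAP18B*, *Taspase1* and *par-1*, 7 of the 2801 genes that were listed near dFOXO-bound regions in at least 1 of 2 long-lived fly genotypes. They are a fixed set of names, picked by hand from the candidates that the study took on to expression and lifespan tests, and not all such candidates of mixed function are among them. Their entries were found by the gene name in the deposited lists. All 7 were in the list from *chico* heterozygotes and 0 were in the list from flies with ablated insulin-producing cells (IPCs). Of 2042 *chico* genes, 253 were also in the IPC list (12.4%).

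Chromatin was prepared from whole females aged 15 days. One genotype carried a single mutant copy of *chico* (allele *chico1*), the gene for the insulin receptor substrate, and in the other the cell death gene *UAS-reaper* was switched on in adult IPCs by the inducible driver *Dilp2-GeneSwitch-gal4*, which removed these cells in part. The drug RU486, given in the food for 15 days, activated this driver. The paper describes no RU486 for the *chico* heterozygotes, whose stock also carried mutations in *y*, *cn* and *ry*. How far the drug or the genetic background bears on differences between the 2 lists was not tested. Each genotype had 2 samples of DNA precipitated with an anti-dFOXO antibody (ChIP) and 2 of input DNA, 8 in all, each from pooled flies. No wildtype ChIP sample was analysed here. Replicates were pooled by the authors before regions were called, so a region has a single pair of values in a genotype and the spread between replicates is unknown.

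dFOXO is the single FOXO transcription factor of *Drosophila*. It is held in the cytoplasm by insulin signaling and enters the nucleus when insulin signaling falls, and stress signaling through the kinase JNK also favours its nuclear form. The candidates have different known roles. *puc* encodes a dual-specificity phosphatase that inactivates JNK and is itself induced by JNK signaling, which makes it a feedback inhibitor. *par-1* encodes a kinase of cell polarity and microtubule organization. *RhoGAP18B* encodes a GTPase-activating protein, and *Oda* encodes the antizyme that binds ornithine decarboxylase and thereby limits polyamine synthesis. *Taspase1* encodes a protease that cleaves the chromatin regulator Trithorax and the large subunit of TFIIA, *Tsp42Ef* encodes a tetraspanin, a protein with several membrane passes, and *CG10731* has the alias ATP synthase coupling factor B in the lists.

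Primer pairs of the study are printed for *puc* (3R), *RhoGAP18B* (X) and *Taspase1* (3L), since they fix which DNA was followed up. The ChIP-PCR pairs amplify the DNA on which dFOXO binding was measured again by PCR, and the mRNA pairs amplify the transcript that set the expression class given further on. All are 24 bases long and written 5' to 3' in lower case. Their places relative to the listed regions were not determined here.
puc ChIP-PCR forward: tgtatgtgtgtagtgtgagcgcgt
puc ChIP-PCR reverse: cgttgccgttgtagtgttgttgct
puc mRNA forward: atcgcattggtgccaatcagaagg
puc mRNA reverse: gccgttcattgccgttgatgatga
RhoGAP18B ChIP-PCR forward: aaatcgctggcgaaactgaaaccg
RhoGAP18B ChIP-PCR reverse: atcaacggttatcggcgaaggaga
RhoGAP18B mRNA forward: catgcgaatgaagttcgccgtcaa
RhoGAP18B mRNA reverse: aggtacaaactgttcacctggcct
Taspase1 ChIP-PCR forward: ccggccatgttggtattgctgttt
Taspase1 ChIP-PCR reverse: tggtatatttcaactcggcccgca
Taspase1 mRNA forward: acagtgggagcggtatgtgttgat
Taspase1 mRNA reverse: tctgcccggaactttgagcagtat

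A tag is a sequence read counted in a region. Input tags were multiplied by the authors by a factor that matches them to the ChIP library, and the enrichment of a region is the ratio of its ChIP tags to its scaled input tags. For each listed region the tags of ChIP and scaled input were set against each other in an exact binomial test, one-sided for more ChIP tags, and p-values were adjusted by Benjamini-Hochberg over 26819 candidate regions. A region with an adjusted p of 0.01 or less is said to pass. Intervals are 95% exact (Clopper-Pearson) intervals. They cover counting error only, since tags from amplified libraries are not independent molecules, and a test compares the pooled ChIP and input libraries of a genotype, not the genotypes. The candidates were listed because the peak caller had already selected regions near them, and some were chosen in the study for strong binding, so an excess of ChIP tags among them follows in part from that choice.

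Of the candidates, 4 were at passing regions in *chico* heterozygotes, *puc*, *Oda*, *Tsp42Ef* and *RhoGAP18B*. In the whole *chico* list, 36 of 1331 regions passed (2.7%), and 45 of 2042 genes were near a passing region (2.2%). The regions of *CG10731*, *Taspase1* and *par-1* did not pass this test. The p-value deposited from the authors' peak caller is 0 at these regions, and also at *Tsp42Ef* and *RhoGAP18B*. It is above 0 at only 20 of the 1331 regions, *puc* and *Oda* among them. At *puc* and *Oda* it equals the p of the exact binomial test, 4.16e-11 and 3.01e-07. At *par-1* it is 0, whereas the exact p is 0.105. Why it differs from the exact p where it is 0 was not tested. Before adjustment the exact p was under 0.05 at 6 of the 7, and at 61.4% of all listed regions, with *par-1* the exception. The median enrichment of the 7 candidates was 1.23, and that of all *chico* regions was 1.10 (range 1.07 to 2.52).

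**Figure D1:**
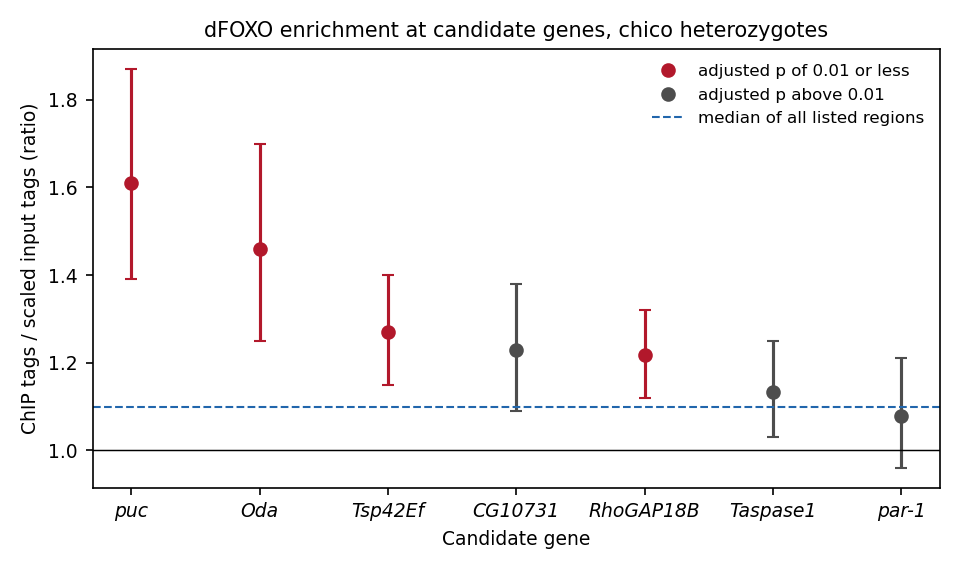
The ratio of ChIP tags to scaled input tags (vertical axis) at the region of each candidate gene in *chico* heterozygotes, with bars for 95% exact binomial intervals, a dashed line at the median of all listed regions and a solid line at equal tags. The interval of *puc* runs from 1.39 to 1.87 and lies above the median of 1.10, whereas that of *par-1* runs from 0.960 to 1.21 and includes 1.

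The largest enrichment was at *puc* (FBgn0243512), the JNK phosphatase. Its region on 3R, from 3931419 to 3932052, had 478 tags in the ChIP library against 297 in the scaled input, or 1.61 times as many (interval 1.39 to 1.87, adjusted p = 8.58e-08, exact binomial test). This was the 11th largest of the 1331 regions, or 0.826% from the top. The regions next to it in the order of enrichment were those of *LpR2* at 1.65 and of *dally* at 1.59. At a width of 634 bp the *puc* region was among the narrowest in the list, with only 8 regions narrower. The 14 listed regions up to 700 bp wide had a median enrichment of 1.6, so *puc* was near the median of narrow regions.

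The *puc* gene is on the forward strand and has a listed length of 16967 bp. The region began 362 bp and ended 995 bp after the listed 5' end, so it lay wholly within the first part of the gene, with its centre at 678 bp. The list pairs it with a second gene, *CG7900* (FBgn0037548), whose 3' end lay 613 bp before the region. That gene runs on the same strand and ends before *puc* begins, and its own 5' end was 11889 bp from the centre of the region.

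*Oda* (FBgn0014184), the antizyme gene, came second. Its region on 2R, from 8060295 to 8060846, had 430 ChIP tags against 295 in the scaled input, a ratio of 1.46 (interval 1.25 to 1.70, adjusted p = 0.000323, exact binomial test). It ranked 21st, between *osk* at 1.46 and *Calx* at 1.45. At 552 bp it was narrower than the *puc* region, and 2 regions of the list were narrower still. Its enrichment was below the median of 1.6 of listed regions up to 700 bp wide.

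*Oda* is on the reverse strand and 7691 bp long in the list. Its region lay 921 to 1472 bp after the 5' end, with the centre at 1197 bp, wholly inside the gene. The same region is also listed for *Cct5* (FBgn0010621), a chaperonin subunit gene that points away from *Oda*. The 5' end of *Cct5* was 1711 bp from the centre. The list gives no means of assigning the tags to either gene.

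At *Tsp42Ef* (FBgn0033127) the region on 2R, from 2912422 to 2913935, held 945 ChIP and 744 scaled input tags. The enrichment was 1.27 (interval 1.15 to 1.40, adjusted p = 0.000529, exact binomial test), rank 34, between *vri* at 1.28 and *Nmdar2* at 1.26. It covered the 5' end of the gene, from 95 bp before it to 1418 bp after it, and the gene is 3071 bp long. No other gene was listed with this region. It is the only gene of the *Tsp42E* cluster in the *chico* list.

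*RhoGAP18B* (FBgn0259169) had the widest region of the 7 and the largest number of tags. The region on X, from 19046984 to 19048977, was 1994 bp wide and held 1299 ChIP and 1067 scaled input tags. Its enrichment of 1.22 (interval 1.12 to 1.32, rank 60) was slightly below that of *CG10731*, but it passed the test (exact binomial test, adjusted p = 0.000841). At its 2366 tags an enrichment of 1.19 was enough to pass. The gene is 29104 bp long on the reverse strand. The region lay deep inside it, from 10385 to 12378 bp after the listed 5' end, or 39.1% along the gene at its centre, and no other gene was listed with it. The RefSeq table of Release 6 gives 5 transcripts for *RhoGAP18B*, and the starts of single transcripts were not used here.

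At *CG10731* (FBgn0034081) the region on 2R, from 12037538 to 12038723, held 671 ChIP and 547 scaled input tags. The enrichment was 1.23 (interval 1.09 to 1.38), rank 56. The exact p was 0.00021 before and 0.0923 after adjustment, and an enrichment of 1.29 would have been needed to pass at its 1218 tags. With adjustment over the listed regions only, its adjusted p was 0.00458. This was the only candidate whose region lay wholly outside the gene, from 1602 to 417 bp before the listed 5' end. The gene is on the reverse strand with a listed length of 3711 bp, against 984 bp in the RefSeq table of Release 6, so the gene models differ. No other gene was listed with the region.

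At *Taspase1* (FBgn0036564) the region on 3L, from 16079098 to 16080803, held 937 ChIP and 827 scaled input tags. The enrichment was 1.13 (interval 1.03 to 1.25), rank 322 or 24.2% from the top. The exact p was 0.00472 before adjustment and 0.59 after it, and an enrichment of 1.23 would have been needed to pass at its 1764 tags. The region was longer than the gene, with 1706 bp against 1646 bp, and ran from 181 bp before the 5' end to 1524 bp after it. It also covered 75 bp at the 3' side of *CG5235* (FBgn0036565), the next gene on the same strand, and the list pairs it with *CG5284* (FBgn0036566) at 3606 bp. The tags cannot be divided among these genes.

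The smallest enrichment was at *par-1* (FBgn0260934). Its region on 2R, from 15347394 to 15348375, had 610 ChIP tags against 566 in the scaled input, a ratio of 1.08 (interval 0.960 to 1.21, exact p = 0.105, which became 1 on adjustment). At its 1176 tags, 1.10 was the smallest enrichment with an exact p under 0.05 and 1.29 the smallest that would pass. The ratio seen was below both. It ranked 1076th, or 80.8% from the top. The gene is 28300 bp long, and the region lay 3715 to 4696 bp after its 5' end. The list also pairs the region with *mei-W68* (FBgn0002716), which encodes the Spo11 homologue that makes meiotic double-strand breaks. That gene lies wholly inside the listed span of *par-1* on the same strand, and its 3' end was 364 bp before the region. RefSeq gives 11 transcripts for *par-1* in Release 6.

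**Figure D2:**
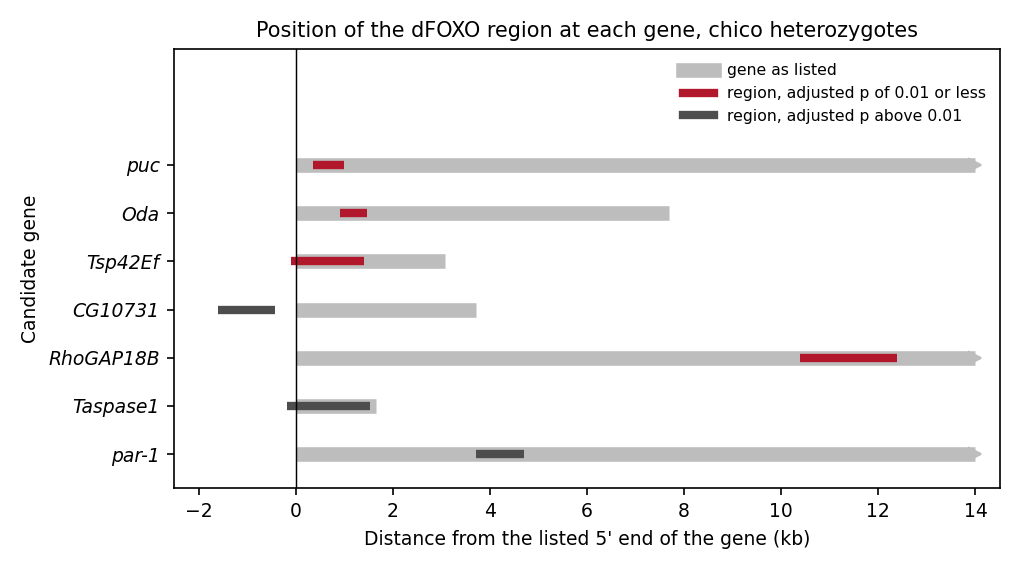
Regions of the candidate genes in *chico* heterozygotes, drawn by distance from the listed 5' end of each gene in kb. Grey bars are genes (arrowheads mark genes that run past the right edge), and coloured bars are regions. Regions of *Tsp42Ef* and *Taspase1* cover the 5' end, that of *CG10731* lies before it, and that of *RhoGAP18B* lies 10385 to 12378 bp after it.

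By position, then, 6 of the 7 regions were labelled in the list as inside the gene, on its 5' side. Among these, the regions of *Tsp42Ef* and *Taspase1* also reached 95 and 181 bp before the 5' end. The centre was within 1 kb of the 5' end at *puc*, *Tsp42Ef* and *Taspase1*, and within 5 kb at all but *RhoGAP18B*. For 3 candidates, *RhoGAP18B*, *Tsp42Ef* and *CG10731*, the region was paired with no other gene. For the other 4 it was paired with 5 further genes in all.

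**Figure D3:**
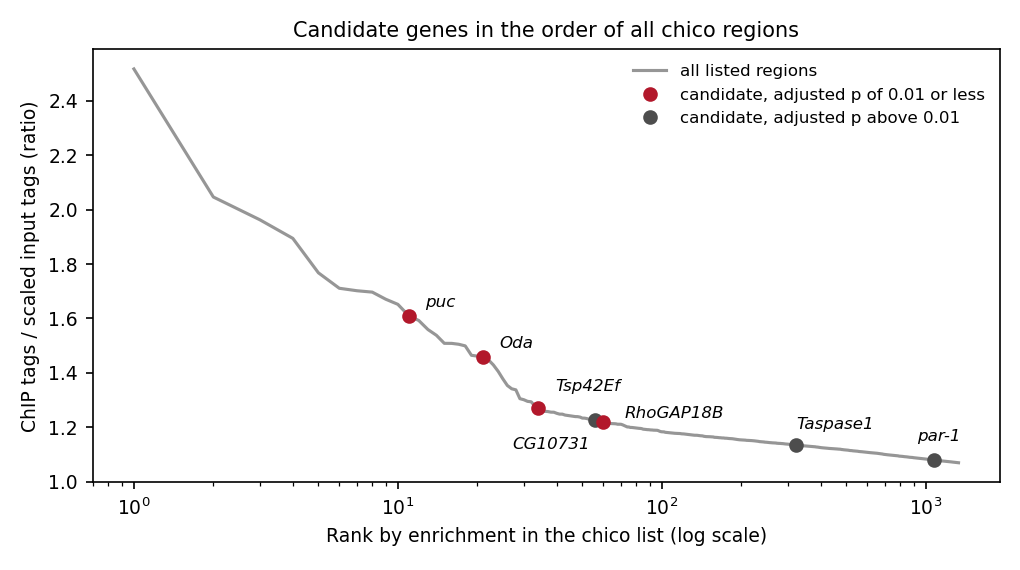
Enrichment of all 1331 *chico* regions (grey line, vertical axis as a ratio) against their rank on a log scale, with the candidate genes marked. *puc* is at rank 11 and *Oda* at rank 21 on the steep part, while *Taspase1* at rank 322 and *par-1* at rank 1076 are on the flat part.

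Enrichments were then compared between candidates. For each of the 21 pairs the ratio of enrichments was computed with an exact conditional interval from the tags of both regions, as a description without adjustment. The interval excluded 1 in 9 pairs. *puc* exceeded *Tsp42Ef*, *CG10731*, *RhoGAP18B*, *Taspase1* and *par-1*, by ratios of 1.27 (interval 1.06 to 1.51) for *Tsp42Ef* to 1.49 (interval 1.24 to 1.80) for *par-1*. *Oda* exceeded *RhoGAP18B*, *Taspase1* and *par-1*, and *Tsp42Ef* exceeded *par-1*. *puc* and *Oda* had the narrowest regions of the candidates. The 14 listed regions up to 700 bp wide, *puc* and *Oda* among them, had a median enrichment of 1.6, against 1.10 for all *chico* regions. Over all *chico* regions the rank correlation (Spearman) of width and enrichment was only -0.15. How far the contrasts between candidates go with the width of the regions was not tested. No 2 neighbours in the order differed beyond counting error. The ratio of *puc* to *Oda* was 1.10 (interval 0.893 to 1.37), that of *Oda* to *Tsp42Ef* was 1.15 (interval 0.958 to 1.38) and that of *Taspase1* to *par-1* was 1.05 (interval 0.904 to 1.22).

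Since regions differ in width, tags were also given per kb of region. All 7 candidates were above the median of the list in ChIP tags, with 549 to 779 tags per kb against a median of 488. All 7 were also above the median in scaled input, with 461 to 576 tags per kb against 441. *puc* had 754 ChIP and 468 scaled input tags per kb, and *Oda* had 779 and 534. *par-1* had 621 ChIP tags per kb, close to the 624 of *Tsp42Ef*. Its scaled input was 576 tags per kb, against 491 at *Tsp42Ef*, and only 15 regions of the list had a higher input density. The low enrichment at *par-1* thus came with a high input density, not with a low ChIP density. What raised the input there was not tested.

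**Figure D4:**
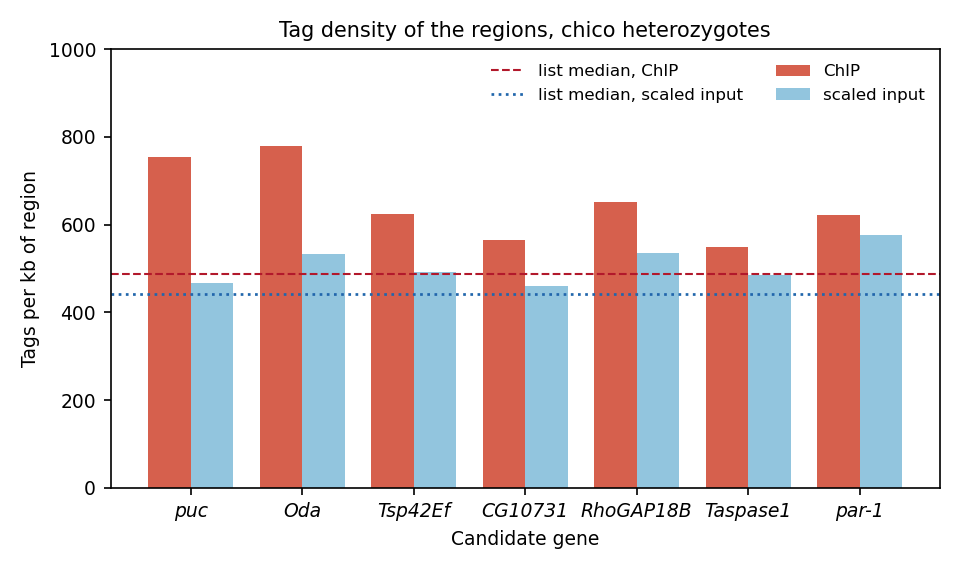
ChIP tags (left bars) and scaled input tags (right bars) per kb of region at the candidate genes in *chico* heterozygotes. The dashed line is the list median for ChIP (488) and the dotted line that for scaled input (441). ChIP bars of *Tsp42Ef* (624) and *par-1* (621) are alike, while their input bars are 491 and 576.

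Input factors differ between chromosome arms, and they enter these ratios directly. The factors were 0.851 on 3R (*puc*), 0.859 on 2R (*Oda*, *Tsp42Ef*, *CG10731* and *par-1*), 0.856 on X (*RhoGAP18B*) and 0.881 on 3L (*Taspase1*). With 1 factor for all arms the enrichment of *Taspase1* was 1.17 in place of 1.13, and the same 4 candidates passed. The calls at *Tsp42Ef* and *RhoGAP18B* depended on the scaling. With input tags raised by 5%, their adjusted p-values in the exact binomial test were 0.0373 and 0.116, and only *puc* and *Oda* passed.

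In the study the candidates were sorted by their mRNA in *chico* null mutants and in *chico; foxo* double mutants. Those mRNA values are not part of the deposited lists, and the homozygous genotype is not the one used for ChIP. *puc* and *RhoGAP18B* were in the class raised in *chico* mutants in a dFOXO-dependent way, *CG10731*, *Taspase1* and *par-1* in the class lowered in that way, and *Tsp42Ef* and *Oda* in the class without a difference. Each gene was also followed by RNAi in a lifespan assay, *puc* and *RhoGAP18B* by overexpression as well, and the outcomes are not used here. Enrichments at *puc* and *RhoGAP18B* were 1.61 and 1.22, and both passed. At *CG10731*, *Taspase1* and *par-1* they were 1.23, 1.13 and 1.08, and none passed by the exact test. At *Tsp42Ef* and *Oda* they were 1.27 and 1.46, and both passed. With the other 10 candidates in the *chico* list added, the raised class had 4 passing genes of 10, the lowered class 1 of 4 and the class without a difference 3 of 3. The added gene of the lowered class, *esg*, had an enrichment of 1.43 and passed. Over all genes of the *chico* list, 2.2% were near a passing region, and some candidates were chosen for strong binding. With input tags raised by 5%, *RhoGAP18B* and *Tsp42Ef* did not pass. The classes hold too few genes for more than these counts.

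Among all 17 candidates of the study that were in the *chico* list, *puc* had the second largest enrichment, after *cv-2* at 1.70, and *par-1* the smallest. The other 10 had a median of 1.27 (range 1.18 to 1.70), and 4 of them passed. In the IPC list were 7 of the other 16 candidates of the study, and 0 of the 7 described here. Since the 7 were picked by hand, this 0 holds for these names only. *sca*, for example, was in both lists.

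The IPC list was then searched by position. No IPC region overlapped any of the 7 genes, and none lay within 5 kb of one. An IPC region lay within 5 kb of 287 of the 2042 genes in the *chico* list (14.1%). Tag numbers outside the listed regions were not analysed here, so a missing entry does not show that dFOXO was not bound. By ChIP-PCR the paper reports higher dFOXO binding at its candidates in each of the genotypes than in wildtype. It also reports binding at *puc* in both, whereas the deposited IPC list has no entry for *puc*. The median enrichment of the 763 IPC regions was 1.02, and 5 of them passed (0.655%), with an adjustment over the listed regions alone.

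For *puc* the nearest IPC region was 583 kb away, at *CG8112* and *hb*. On 3R there were only 20 IPC regions, against 399 *chico* regions, and the genes of the *chico* list on that arm had a median distance of 534 kb to an IPC region. For *RhoGAP18B* the nearest was 117 kb away, at *CG42506* (median of 101 kb for genes on X), and for *Taspase1* it was 63.2 kb away, at *Notum* (median of 39.4 kb on 3L). On 2R, which held 324 IPC regions, the median was 12.3 kb. The distances there were 21.5 kb for *par-1* (*Ir56b* and *Ir56c*), 29.4 kb for *Oda* (*Sr-CII*), 29.8 kb for *Tsp42Ef* (*Tsp42Ea*, *CG30159* and *vimar*) and 78.7 kb for *CG10731* (*CG8405*). All 7 distances were above the median of their arm. The medians include genes with an IPC region within 5 kb, which none of the 7 had, so nothing more is read from this.

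These nearest IPC regions had enrichments of 1.00 to 1.10. The largest, at *CG8405*, held 696 ChIP and 631 scaled input tags (1.10, interval 0.989 to 1.23), and its adjusted p was 0.304 in the exact binomial test. The region nearest to *Tsp42Ef* lay at *Tsp42Ea*, another tetraspanin gene of the same cluster, and had 1844 ChIP and 1822 scaled input tags (1.01, interval 0.948 to 1.08). None of the 7 passed.

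**Figure D5:**
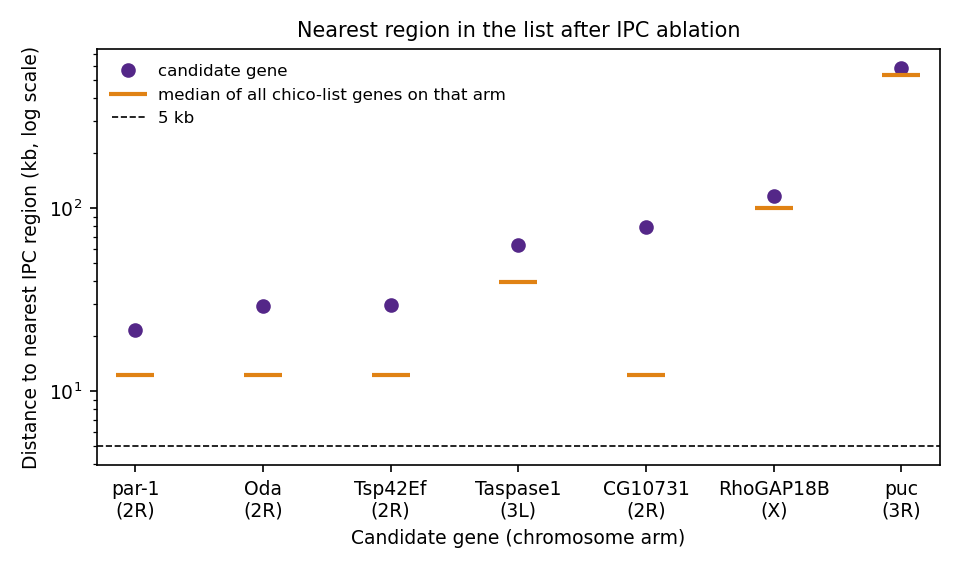
Distance in kb (log scale) from each candidate gene to the nearest region in the list after IPC ablation, with the chromosome arm in brackets. Orange marks are medians over all genes of the *chico* list on the same arm, and the dashed line is at 5 kb. *par-1* is nearest at 21.5 kb and *puc* farthest at 583 kb, on an arm where the median is 534 kb.

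Genes that work with the candidates were looked up in 7 hand-written groups with 127 genes in all. As a background, the *chico* list held 14.2% of protein-coding genes and the IPC list 6.79%. Counts are given without a test, because the candidates in these groups were listed by choice, and neighbours that share a region enter a list together.

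Of 28 other genes of JNK signaling, 8 were in the *chico* list, and 0 of them were at passing regions. They were the ligand gene *egr* (1.14), the kinase genes *Tak1* (1.10), *slpr* (1.16), *Mekk1* (1.07) and *msn* (1.09), the transcription factor gene *Jra* (1.14), the filamin gene *cher* (1.17) and the Rac-like GTPase gene *Mtl* (1.09). The exact p before adjustment was under 0.05 at *egr*, *slpr*, *Jra* and *cher*. At *egr*, for example, the region held 896 ChIP and 785 scaled input tags (interval 1.04 to 1.26, exact p = 0.00364 before and 0.531 after adjustment). The JNK gene itself, *bsk*, and its activating kinase gene *hep* were in neither list. The IPC list held *Tab2* (1.03), *slpr* (1.02) and *msn* (1.00), and none passed. The enrichment of *puc* was 1.61, against 1.07 to 1.17 at the 8 other listed genes. With 2.2% of all *chico* genes at a passing region, 0 of 8 is near the background, and *puc* was among candidates chosen in part for strong binding, so nothing is read from this count.

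Of 34 other tetraspanin genes, 4 were in the *chico* list, *Tsp5D* (1.11), *Tsp39D* (1.17), *Tsp66E* (1.10) and *Tsp96F* (1.13), and none passed. *Tsp42A* and *Tsp42Ea* were in the IPC list, the first in a region of 88669 bp.

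Of 17 genes that act with *par-1* in cell polarity, 8 were in the *chico* list and 1 passed. This was *osk*, whose product PAR-1 phosphorylates in the oocyte, with 424 ChIP and 291 scaled input tags in a region of 766 bp whose centre was 151 bp after the 5' end (1.46, interval 1.25 to 1.70, adjusted p = 0.000368, exact binomial test). The others were *par-6* (1.12), *baz* (1.11), *14-3-3zeta* (1.14), *14-3-3epsilon* (1.16), *tau* (1.14), *sdt* (1.16) and *scrib* (1.13). The IPC list held *aPKC* (1.03), *14-3-3zeta* (1.04) and *sdt* (1.02) of this group, and none passed. *14-3-3zeta* and the JNK pathway gene *Jra* share a single region, as do *sdt* and *slpr*, so these are not independent. Of all *chico* genes 2.2% were at a passing region, and nothing is read from the 1 of 8 in this group. Of the substrates of Taspase1, *TfIIA-L* was in the *chico* list, with the centre of its region 1199 bp before the gene (1.16, exact p = 0.00259 before and 0.443 after adjustment), and *trx* was in neither list. Of 14 other ATP synthase genes, 2 were in the *chico* list (*l(1)G0230* at 1.13 and another at 1.09) and *blw* (1.02) was in the IPC list, and none passed. *Oda* was the only one of 6 genes of polyamine synthesis in either list, and the genes of its target enzyme, *Odc1* and *Odc2*, were in neither.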

How the data were processed

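Reads of the 2 replicates of a sample type were pooled by the authors, then aligned with Bowtie, and regions were called with PeakSeq at an FDR of 0.01. The submitters' processing notes also name CASAVA 1.6. The genome build is not given in the sources used here, and coordinates are those of the lists. The deposited ChIP tags are counts per region without normalization. The authors' scaled input tags are a score, since input tags were multiplied by a factor per chromosome arm and rounded up. Enrichment, as deposited, is a ratio with ChIP tags on top and unrounded scaled input below. The deposited p-values and adjusted p-values are those of PeakSeq. Apart from the deposited p-values quoted for the candidates, they served here only to derive the number of candidate regions (median 26819). That number rests on the 20 *chico* regions with a deposited p-value above 0.

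Regions paired with several genes were counted once. The test, intervals and threshold are those given with the results, run on all 1331 *chico* and 763 IPC regions. Ranks in the *chico* adjustment were those among listed regions, which makes it strict, and the IPC adjustment was over listed regions alone. The factor of an arm was found as the number that divides every unrounded input value there into a whole number (within 0.02). Gene groups were written by hand from textbook knowledge and matched to the RefSeq table of Release 6, and 4 names without a match were left out. The results of 1 group are not reported here. The members and lists were chosen with earlier results of these data known. Genes named are the 7 candidates, genes paired with the same regions, genes of the groups, genes of the nearest IPC regions and the neighbours in the order of enrichment. *cv-2*, *esg* and *sca*, and the groups' absent genes, were named after values were seen. The region test and factor search were tested on simulated data. Motifs in promoters were planned and not run, since no sequence of these windows was used here. Computations ran in Python 3.11.15 with pandas 2.3.3, SciPy 1.17.1 and NumPy 2.4.6, and plots in Matplotlib 3.10.9.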

Additional observations from a re-analysis of the deposited data

How the results depend on the processing

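No paired analysis was possible because the authors pooled the replicates before regions were called, and for the same reason no replicate could be left out. Of the 7 candidates, 4 were at passing regions. This number was 2 with input tags raised by 5% (*puc* and *Oda*) and 5 with input tags lowered by 5% or with adjustment over the listed regions only, where *CG10731* was added with adjusted exact p-values of 0.00245 and 0.00458. It stayed at 4, the same genes, with 1 input factor for all arms, with an adjusted p of 0.05 and with a two-sided test. The same 4 also passed with unscaled input tags. There the arm factor still entered the comparison, and the enrichment of *puc* stayed at 1.61, so the scaling was not removed. *puc* and *Oda* passed and *Taspase1* and *par-1* did not under each of these 7 alternatives. The median enrichment of the candidates was 1.17 to 1.29 over its 5 alternatives. No candidate was paired with an IPC region by identifier, by alias or by position. Of the groups' genes, 36 were in the *chico* list, of which 33 had a region no more than 5 kb away and 22 no more than 1 kb away by the distance in the list. In the *chico* list 36 regions passed, against 142 with input tags lowered by 5%, 24 with input tags raised and 85 with adjustment over the listed regions only. Depth limits the calls most at *Oda*, where an enrichment under 1.38 would not have passed.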
